A study of Mus musculus with 8 samples.

Results

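The transcription factors Bcl11b, Fezf2, Tbr1, Sox5, Tle4, Foxp1, Foxp2, Etv1, Zfpm2 and Ldb2 mark or specify the deep layers of the cerebral cortex, and they were followed in frontal cortex of WT and HAR123-KO mice. The 10 genes were chosen by name out of 55536 genes in the count table, by a rule that uses no measured value but was written with earlier results of these data known. They were divided into 3 genes that striatal neurons also express (Bcl11b, Foxp1 and Foxp2) and 7 genes treated as restricted to cortex among these tissues. That division is a matter of background knowledge, and no striatal library was analysed here.

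HAR123 is a conserved enhancer within the Smg6 gene whose sequence diverged rapidly on the human lineage. HAR123-KO mice carry a constitutive CRISPR-Cas9 deletion of the mouse ortholog, made by injection of C57BL/6J embryos, and the strains were backcrossed to C57BL/6J. The controls were WT mice, described as littermates, and both genotypes were 8 weeks old. The comparison had 4 WT and 4 HAR123-KO libraries of total RNA depleted of ribosomal RNA. Neither the zygosity of the deletion nor the number of founder lines is given in the sources used here. The labels do not say that the libraries came from separate animals, so the p-values below measure the spread between these libraries, which may be technical.

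Projection neurons of the deep layers send axons out of the cortex, to the thalamus from layer 6 and to the brainstem, spinal cord and striatum from layer 5. Their identities are set during development by transcription factors that promote a fate and repress others, with Fezf2 and Bcl11b acting in subcerebral neurons and Tbr1 in corticothalamic neurons. Many of these factors stay on in the adult. Foxp1 and Foxp2, repressors of the forkhead family, and Bcl11b are also strongly expressed by the projection neurons of the striatum, which lies below the frontal cortex.

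Library totals lay between 13528251 and 17051001 counts, of which Gm42418, a gene overlapping ribosomal RNA sequence, took 55.1% to 58.0%. Nuclear protein-coding genes kept 2786320 to 3732172 counts per library, and this is the depth behind the values below. Values are normalized counts, that is, read counts divided by DESeq2 size factors, and errors are SDs over 4 libraries. Smg6, the host gene of the deleted element, was at 209.3 ± 7.79 normalized counts in the WT libraries and at 217.9 ± 15.4 in the HAR123-KO libraries (n = 4 each), a log2 fold change of 0.05 ± 0.09 (SE). The cortical genes Slc17a7 and Cux2 were detected in all 8 libraries, as were striatal genes such as Ppp1r1b. The level of Smg6 does not test the deletion, which lies outside the exons counted. In bulk tissue, fewer cells of a type and less RNA per cell cannot be told apart, and this holds for every difference below.

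Of the 10 genes, only Foxp1 passed the threshold of the DESeq2 Wald test (adjusted p under 0.05 over all genes tested), where it was higher in HAR123-KO by 15.4%. Foxp2 and Etv1 were also higher in every HAR123-KO library than in any WT library, by 24.6% and 19.1%, but passed in edgeR and not in DESeq2. The remaining 7 genes, among them Fezf2, Tbr1 and Bcl11b, did not pass in either tool. None was lower past the threshold. With the replicate number as a block, DESeq2 called 0 of the 10 genes higher and edgeR called 3.

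All 10 genes had enough counts to be tested. In DESeq2, 1 of 10 was called, beside 1.79% of all tested genes called in either direction. It was higher, beside 1.04% of tested genes, and 0 of 10 were lower, beside 0.754%. With a further limit of 0.5 on the absolute log2 fold change 0 of 10 passed, beside 0.32%. At an unadjusted DESeq2 p under 0.05, 3 of 10 passed, beside 9.01% of tested genes in either direction and 4.63% higher, and all 3 were higher. The quasi-likelihood test of edgeR called 3 of 10 higher (Foxp1, Foxp2 and Etv1), beside 2.28% of the genes it tested in either direction and 1.26% higher, and limma-voom called 2 (Foxp1 and Etv1), beside 2% called in either direction. Both called 0 lower. The libraries of the genotypes did not overlap for 3 of 10 genes, all with the higher values in HAR123-KO, beside 7.85% of tested genes without overlap in either direction and 4.11% with the higher values there. For 0 of 10 were the HAR123-KO libraries the lower, beside 3.74%. The median log2 fold change was 0.04 over the 10 genes and -0.001 over all 12203 genes tested.

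**Figure D1:**
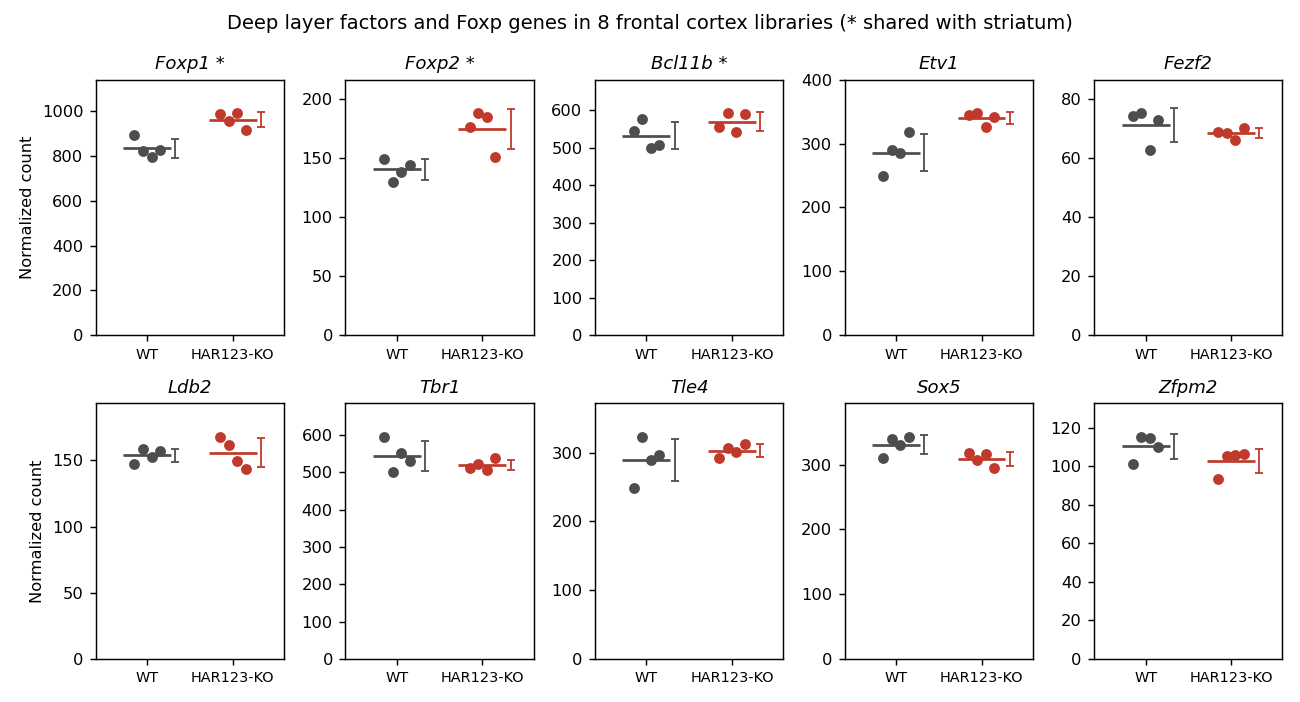
Normalized count of each of the 10 genes (vertical axes, starting at 0) in the 4 WT (grey) and 4 HAR123-KO (red) libraries. Points are libraries, horizontal bars are means and the bars beside them are SDs; asterisks mark the 3 genes shared with striatum. Foxp1, Foxp2 and Etv1 are the panels in which no HAR123-KO library falls among the WT libraries.

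The Foxp genes encode repressors that bind DNA through a forkhead domain and act as dimers with each other. Foxp1 (ENSMUSG00000030067) lies at chr6:98925338-99522721 on the minus strand of GRCm38, and Foxp2 (ENSMUSG00000029563) at chr6:14901349-15441977 on the plus strand, on the same chromosome. No stretch of 50 bases occurs in GENCODE transcripts (GRCm38) of more than 1 of the 10 genes.

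Foxp1 gave normalized counts of 893.9, 820.5, 793.9 and 828.0 in WT replicates 1 to 4 and of 984.9, 955.6, 991.3 and 916.7 in HAR123-KO replicates 1 to 4. The lowest HAR123-KO library, replicate 4, stood above the highest WT library, replicate 1. The means were 834.1 ± 42.5 and 962.2 ± 34.1 (n = 4 each). The log2 fold change was 0.21 ± 0.05 (SE), with a 95% interval of 0.12 to 0.30 and a DESeq2 adjusted p of 0.000779. The edgeR adjusted p was 0.000936. Foxp1 was not among the strongest differences of the table: it ranked 91 by p among the 219 genes called, whose median absolute log2 fold change was 0.26. Its exons share 3.16% of their bases with Gm49348 and Gm20696, annotated on the same strand, so some of its reads could belong to these.

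Foxp2, a gene known from inherited disorders of speech and expressed in layer 6 and striatum, gave normalized counts of 149.7, 129.7, 138.1 and 144.4 in WT replicates 1 to 4. In HAR123-KO replicates 1 to 4 it gave 176.1, 188.3, 184.9 and 151.0. HAR123-KO replicate 4 stood just above the highest WT library, while the other HAR123-KO libraries were well apart from WT. The means were 140.5 ± 8.61 and 175.1 ± 16.8 (n = 4 each), and the log2 fold change was 0.32 ± 0.11 (SE; 95% interval 0.12 to 0.53). The adjusted p was 0.0987 in DESeq2, 0.0283 in edgeR and 0.0542 in limma-voom. With single libraries left out, the DESeq2 adjusted p ran from 0.0263 to 0.530, and it was under the threshold only without HAR123-KO replicate 4.

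Bcl11b (ENSMUSG00000048251, chr12:107910403-108003602, minus strand), also known as Ctip2, is a zinc finger factor of subcerebral neurons and of striatal projection neurons. Its normalized counts were 544.9, 577.6, 499.1 and 506.0 in WT and 553.9, 592.4, 541.4 and 590.2 in HAR123-KO. The genotypes overlapped, with 2 HAR123-KO libraries above the highest WT library. Means were 531.9 ± 36.5 and 569.5 ± 25.7 (n = 4 each), and the log2 fold change of 0.10 ± 0.06 (SE) did not pass (DESeq2 adjusted p = 0.658). Its 95% interval reached from -0.01 to 0.21, which includes both 0 and the value of Foxp1.

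The 3 genes shared with striatum had log2 fold changes with a median of 0.21, which is the value of Foxp1. Those of the 7 restricted to cortex had a median of -0.06. The difference between these medians was not tested. Summed over the 3 shared genes, normalized counts ran from 1431 to 1589 in WT and from 1658 to 1736 in HAR123-KO. Foxp1 had the largest part in this, with a difference of means of 128.1, beside 37.6 for Bcl11b and 34.6 for Foxp2. Summed over the other 7, they ran from 1727 to 1831 and from 1772 to 1822, with HAR123-KO inside the WT range. As a share of all counts of the 10 genes, the shared genes took 44.5% to 47.9% in WT and 47.9% to 49.2% in HAR123-KO. These ranges overlapped, since HAR123-KO replicate 4 (47.85%) lay below WT replicate 1 (47.91%).

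**Figure D2:**
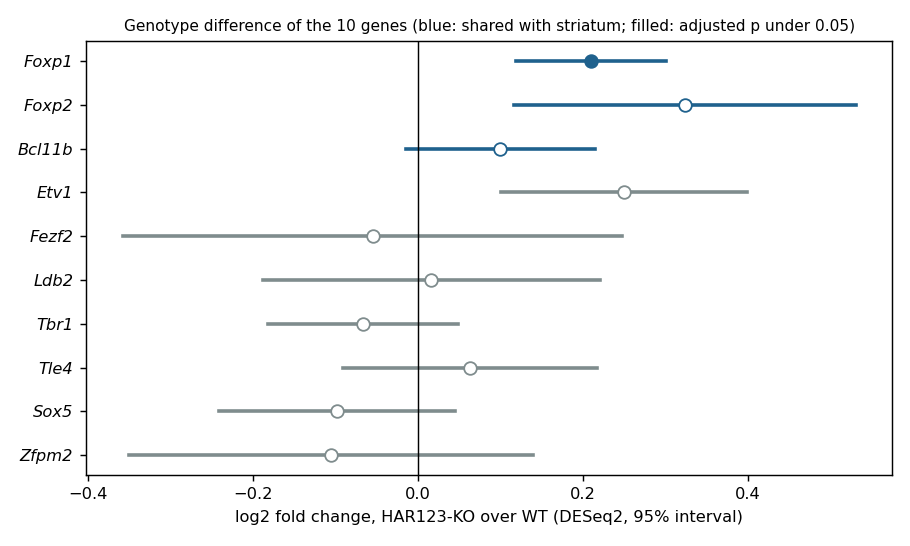
log2 fold change of each gene, HAR123-KO over WT (horizontal axis), with its 95% interval from the DESeq2 fit on 4 libraries a genotype; blue marks the genes shared with striatum, grey the others, and the filled point an adjusted p under 0.05. The intervals of Foxp1, Foxp2 and Etv1 lie above 0 and the other 7 include it.

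Etv1 (ENSMUSG00000004151, chr12:38779380-38870484, plus strand), also called Er81, is an ETS factor used as a marker of layer 5 neurons. It gave normalized counts of 248.8, 290.3, 284.7 and 318.8 in WT and of 345.0, 348.0, 326.6 and 341.4 in HAR123-KO. All HAR123-KO libraries stood above all WT libraries, with the nearest pair being HAR123-KO replicate 3 and WT replicate 4. Means were 285.7 ± 28.7 and 340.3 ± 9.49 (n = 4 each), and the log2 fold change was 0.25 ± 0.08 (SE; 95% interval 0.10 to 0.40). The adjusted p was 0.0550 in DESeq2, 0.0164 in edgeR and 0.0380 in limma-voom. With single libraries left out, the DESeq2 adjusted p ran from 0.0281 without WT replicate 4, the only value under the threshold, to 0.412 without WT replicate 1, where the log2 fold change was 0.19. Of the distinct stretches of 50 bases in Etv1 transcripts, 9.08% also occur in transcripts of other genes, and how the authors' counting treated reads with several matches is not given.

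Fezf2 and Ldb2 are the other factors of layer 5. Fezf2 (ENSMUSG00000021743, chr14:12342094-12348189, minus strand), a zinc finger factor needed for corticospinal identity, gave 74.30, 75.15, 62.70 and 72.74 normalized counts in WT and 68.60, 68.46, 66.03 and 70.19 in HAR123-KO. All HAR123-KO libraries lay within the WT range. The log2 fold change was -0.06 ± 0.15 (SE; 95% interval -0.36 to 0.25; DESeq2 adjusted p = 0.983), the widest interval of the 10, on the lowest counts (66 to 75 reads per library). Ldb2 (ENSMUSG00000039706, chr5:44472132-44799680, minus strand), a cofactor that binds LIM domains, gave 147.5, 158.5, 152.5 and 157.3 in WT and 167.9, 161.6, 149.7 and 143.6 in HAR123-KO. The HAR123-KO libraries lay on both sides of the WT range. Its log2 fold change was 0.02 ± 0.10 (SE; 95% interval -0.19 to 0.22), and its sign turned when single libraries were left out.

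Tbr1, Tle4, Sox5 and Zfpm2 belong to layer 6 and the corticothalamic neurons. Tbr1 (ENSMUSG00000035033, chr2:61802930-61814114, plus strand), the T-box factor that specifies these neurons, gave 595.6, 500.3, 550.7 and 531.7 normalized counts in WT and 511.9, 523.0, 507.1 and 538.1 in HAR123-KO. The HAR123-KO libraries all fell inside the WT range. The log2 fold change was -0.07 ± 0.06 (SE; 95% interval -0.18 to 0.05; DESeq2 adjusted p = 0.866). Tle4 (ENSMUSG00000024642, chr19:14448150-14598051, minus strand), a corepressor of the Groucho family, gave 248.8, 323.3, 288.9 and 297.4 in WT and 291.8, 307.1, 301.1 and 312.7 in HAR123-KO. These too fell inside the WT range, where WT replicate 1 was the lowest and WT replicate 2 the highest, and the log2 fold change was 0.06 ± 0.08 (SE; 95% interval -0.09 to 0.22; DESeq2 adjusted p = 0.931).

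Sox5 (ENSMUSG00000041540, chr6:143828425-144781977, minus strand), which times the production of deep layer neurons, gave 310.7, 339.7, 330.4 and 343.4 normalized counts in WT and 318.4, 308.1, 316.1 and 294.6 in HAR123-KO. The genotypes overlapped, with 2 HAR123-KO libraries below the lowest WT library. The log2 fold change was -0.10 ± 0.07 (SE; 95% interval -0.24 to 0.04; DESeq2 adjusted p = 0.791). The antisense gene Sox5os1 covers 9.25% of the exon bases of Sox5, and the strand setting of the counting is not given, so reads of the pair may not be told apart there. Zfpm2 (ENSMUSG00000022306, chr15:40655035-41104592, plus strand), also called Fog2, a cofactor of GATA factors, gave 101.3, 115.3, 114.4 and 110.2 in WT and 93.17, 105.5, 105.6 and 106.3 in HAR123-KO. Only HAR123-KO replicate 1 lay below the WT range. Its log2 fold change was -0.11 ± 0.13 (SE; 95% interval -0.35 to 0.14; DESeq2 adjusted p = 0.922).

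Of the 7 genes restricted to cortex, DESeq2 called 0 in either direction, beside 1.79% of all tested genes, 1 had an unadjusted DESeq2 p under 0.05 (Etv1), beside 9.01%, and edgeR called 1 (Etv1), beside 2.28%. Counts this small on 7 genes are not a result about them. The 95% intervals reach down to -0.18 for Tbr1, -0.24 for Sox5 and -0.36 for Fezf2, so lower levels of that size in HAR123-KO are within the error of these estimates.

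Between genes, levels were compared as normalized counts per kb of exon. The length was that of all annotated exons of a gene together, from 3047 bases for Fezf2 to 16346 for Foxp2. It can exceed the length of a single transcript, so the order between genes depends on it. Tbr1 was highest in WT at 99.3 ± 7.26 per kb, followed by Bcl11b at 65.6 ± 4.50 and Foxp1 at 60.7 ± 3.09. Tle4 had 50.8 ± 5.41 and Ldb2 46.2 ± 1.51, and Fezf2, Sox5 and Etv1 stood close together at 23.4 ± 1.89, 23.0 ± 1.02 and 21.5 ± 2.16. Zfpm2 had 11.6 ± 0.670 and Foxp2 8.60 ± 0.527 (SD, n = 4 throughout). In WT the libraries of Bcl11b and Foxp1, of Tle4 and Ldb2, of Fezf2 and Sox5, and of Sox5 and Etv1 overlapped, so the order within these pairs was not resolved. In HAR123-KO, Etv1 reached 25.6 ± 0.714 per kb and stood above Fezf2 at 22.4 ± 0.563 and Sox5 at 21.5 ± 0.748. Foxp2 was at 10.7 ± 1.03 per kb there, and its libraries overlapped those of Zfpm2 at 10.8 ± 0.666. Bcl11b and Foxp1, at 70.2 ± 3.17 and 70.0 ± 2.48, were again not separated.

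**Figure D3:**
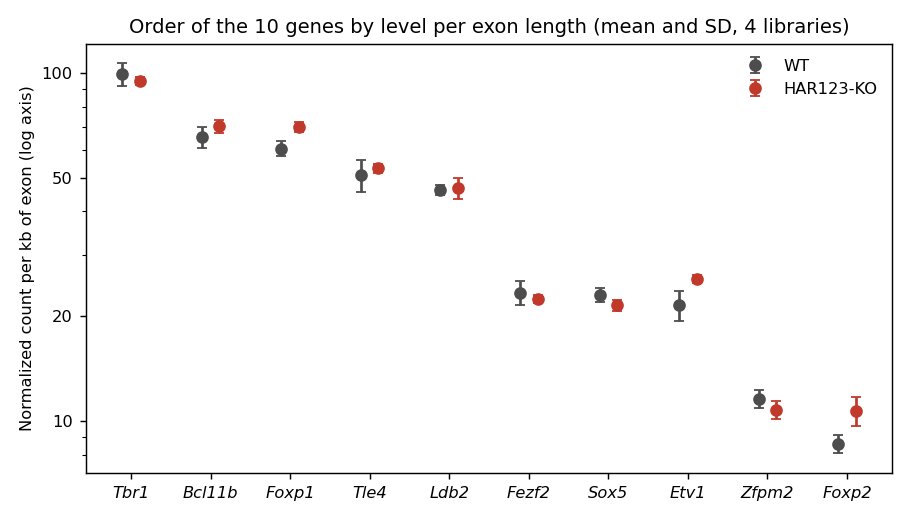
Level of each gene as normalized count per kb of exon (log axis), mean and SD over 4 WT (grey) and 4 HAR123-KO (red) libraries, in the order of the WT means. Levels run from 99.3 for Tbr1 to 8.60 for Foxp2 in WT, and Etv1 and Foxp2 move towards or past their neighbours in HAR123-KO.

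Promoter sequence was taken from RefSeq (GRCm38.p6) for 7 of the 10 genes, as 11 windows of 300 bases around annotated starts. Promoters of Foxp2, Zfpm2 and Ldb2 were not used here. Windows of Foxp1 and Etv1, which passed the threshold in at least 1 tool, and of Tbr1, which passed in none, are shown as the 250 bases before the start, 5′ to 3′ on the strand of the gene. Capitals mark AACAAT or its reverse complement, a sequence that SOX factors such as Sox5 bind. Foxp1 has 3 windows, at chr6:99520994-99521243, chr6:99266516-99266765 and chr6:99028299-99028548 (minus strand).
Foxp1 window 1: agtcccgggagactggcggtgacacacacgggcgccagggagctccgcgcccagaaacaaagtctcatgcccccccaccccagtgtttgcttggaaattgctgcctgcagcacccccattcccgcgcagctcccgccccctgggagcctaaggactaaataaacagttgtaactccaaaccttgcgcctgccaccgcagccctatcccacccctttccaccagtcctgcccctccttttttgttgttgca
Foxp1 window 2: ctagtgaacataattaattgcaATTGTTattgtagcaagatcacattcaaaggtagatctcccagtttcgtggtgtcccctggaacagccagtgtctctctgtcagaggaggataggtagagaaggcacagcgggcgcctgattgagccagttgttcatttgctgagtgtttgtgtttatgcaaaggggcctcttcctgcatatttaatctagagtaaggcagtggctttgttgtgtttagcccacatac
Foxp1 window 3: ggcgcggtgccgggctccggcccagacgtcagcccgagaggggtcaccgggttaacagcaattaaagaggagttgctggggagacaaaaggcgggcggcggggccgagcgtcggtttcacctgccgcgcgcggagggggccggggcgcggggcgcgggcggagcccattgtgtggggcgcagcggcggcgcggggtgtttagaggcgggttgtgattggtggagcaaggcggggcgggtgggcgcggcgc
Etv1 has 2 windows, at chr12:38779832-38780081 and chr12:38783461-38783710, and Tbr1 has 1, at chr2:61804203-61804452 (plus strand).
Etv1 window 1: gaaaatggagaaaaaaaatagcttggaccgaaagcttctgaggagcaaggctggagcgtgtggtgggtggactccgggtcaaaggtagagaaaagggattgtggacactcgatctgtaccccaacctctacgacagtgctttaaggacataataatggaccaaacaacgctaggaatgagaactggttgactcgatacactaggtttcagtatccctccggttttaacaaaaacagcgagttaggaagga
Etv1 window 2: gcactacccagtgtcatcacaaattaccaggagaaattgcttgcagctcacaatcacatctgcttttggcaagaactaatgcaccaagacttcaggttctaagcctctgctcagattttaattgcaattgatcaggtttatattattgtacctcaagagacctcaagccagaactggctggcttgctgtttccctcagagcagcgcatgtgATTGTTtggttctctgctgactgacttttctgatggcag
Tbr1 window 1: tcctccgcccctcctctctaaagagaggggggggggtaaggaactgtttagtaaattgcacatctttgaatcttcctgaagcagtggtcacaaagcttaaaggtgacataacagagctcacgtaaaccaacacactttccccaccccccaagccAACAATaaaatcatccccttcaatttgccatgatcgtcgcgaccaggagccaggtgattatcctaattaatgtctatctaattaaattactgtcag
The starts of Foxp1 differ in base composition. Over the whole windows of 300 bases, the third had 44 CG dinucleotides and 75.3% G or C, while the second had 5 and 48.7%, beside a median of 7 and 52.7% over all 32851 windows. The first had 13 and 60.3%. The windows of Etv1 had 12 and 3 CG dinucleotides and that of Tbr1 had 7. Counts per gene do not say which of these starts the reads came from.

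Short motifs of the families to which the 10 genes belong were searched on both strands of the windows. AACAAT was found in 4 of 11 windows, those of Foxp1 (window 2), Tbr1, Tle4 (window 2) and Etv1 (window 2), beside 10.7% of all windows. The forkhead motif TGTTTAC, the ETS motif CCGGAA and the T-box motif AGGTGT were in 0 of 11 and so overlapped no AACAAT, beside 3.65%, 14.9% and 13.7% of all windows. Such matches describe the letters of these windows, and the windows of a gene are not independent.

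The closest relatives of the 10 genes were measured to see whether they moved with them. Of 17 listed, 12 could be tested, and DESeq2 called 0 of 12, beside 1.79% of all tested genes. Foxp4, another Foxp gene, gave means of 135.6 ± 5.64 normalized counts for WT and 135.4 ± 2.42 for HAR123-KO (log2 fold change -0.0001 ± 0.11, SE). Foxp3, the factor of regulatory T cells, had at most 1 read in a library. Among the Groucho corepressors, Tle3 fell from 207.5 ± 33.2 to 163.1 ± 10.8 in edgeR (adjusted p = 0.0245) and not in DESeq2 (adjusted p = 0.0613; log2 fold change -0.34 ± 0.10). The highest values were those of Tle2 (log2 fold change 0.27) and Tle1 (0.10), and the next lowest that of Sox6 (-0.11), none of which passed. Fezf1 and Tbx21 had 0 counts in all libraries and Eomes at most 2, so the listed relatives of Fezf2 and Tbr1 were at or near 0 in these samples. The list had a median log2 fold change of 0.01.

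Among 19 other regulators of cortical neuron identity, 1 was called in DESeq2, beside 1.79% of all tested genes. Lmo3, a LIM-only protein, rose from 319.8 ± 15.2 to 387.8 ± 17.6 normalized counts (log2 fold change 0.28 ± 0.07, SE; DESeq2 adjusted p = 0.00632). Emx2 had a log2 fold change of 0.49 ± 0.22, Nr2f2 one of -0.56 ± 0.19 and Nr2f1, also known as COUP-TFI, one of -0.21 ± 0.09, and none of these passed in DESeq2. The median was -0.01.

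Of 13 genes known as targets or partners of Foxp, Tbr1 and Fezf2 proteins, 10 were tested. DESeq2 called 1 of them, beside 1.79% of all tested genes. Slc17a7, the vesicular glutamate transporter VGLUT1, fell from 3647 ± 47.2 to 3260 ± 129.7 normalized counts (log2 fold change -0.16 ± 0.03, SE; DESeq2 adjusted p = 7.85e-06). Cntnap2, a neurexin family gene that FOXP2 binds in human cells, had a log2 fold change of 0.15 ± 0.05, with the genotypes not overlapping but an adjusted p of 0.157 in DESeq2. Ephb1 had one of 0.23 ± 0.09 and Met one of -0.26 ± 0.21, and neither passed. Plaur was near 0, with at most 5 reads in a library, and Srpx2, the other target of FOXP2 named with it, had at most 7. The median of the tested genes was -0.01, and with library totals as size factors it and the median of the identity regulators turned to 0.04 and 0.03; 1 target was then called higher and 1 lower.

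Layer 5 and 6 markers that are not among the 10 genes were followed as a further list. Whether they are restricted to deep layer neurons in this tissue was not tested. Of the 16, 13 were tested and DESeq2 called 0, beside 1.79% of all tested genes. The edgeR test called 1, Syt6, a synaptotagmin of corticothalamic neurons, beside 2.28% of the genes it tested. The median log2 fold change was 0.11, with 11 of the 13 above 0, beside 49.55% of all tested genes. Syt6 averaged 134.4 ± 7.15 normalized counts over WT libraries and 167.7 ± 12.8 over HAR123-KO libraries (adjusted p = 0.105 in DESeq2 and 0.0293 in edgeR). The other ends of the list were Hsd11b1 (log2 fold change 0.36 ± 0.22), Rprm (-0.22 ± 0.12) and Ntsr1 (-0.10 ± 0.28), a receptor of layer 6 corticothalamic neurons. The summed level of the 16 markers ran from 1170 to 1206 in WT and from 1240 to 1293 in HAR123-KO, and these ranges did not overlap.

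**Figure D4:**
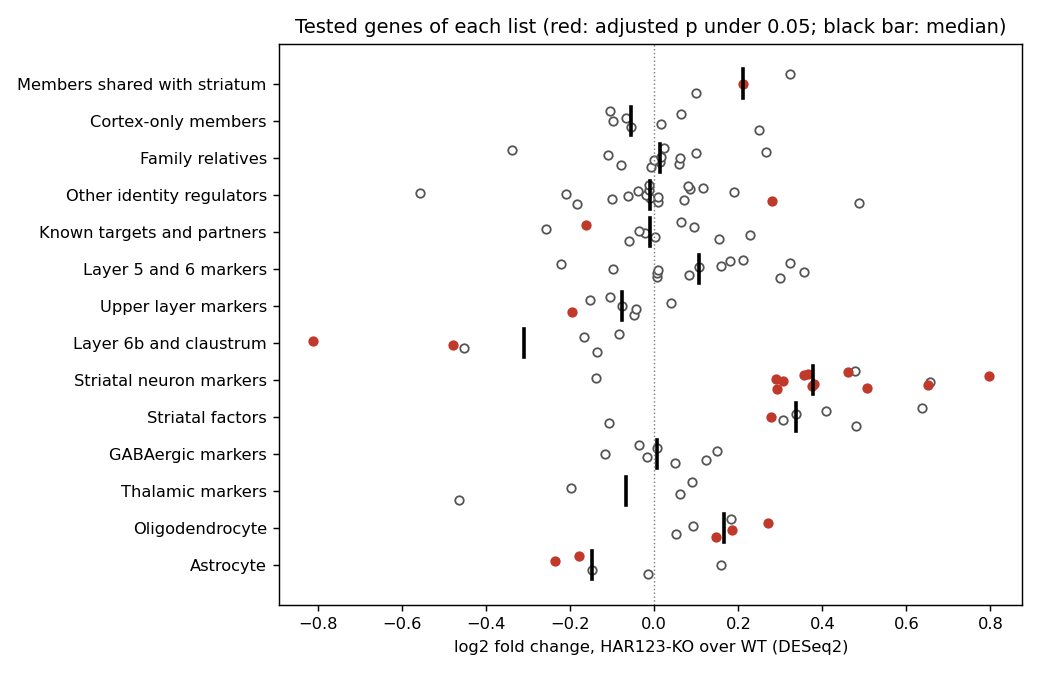
log2 fold change, HAR123-KO over WT (horizontal axis), of every tested gene in each list (rows); red points have a DESeq2 adjusted p under 0.05, open points do not, and black bars are list medians. The medians are 0.21 for the members shared with striatum, -0.06 for those restricted to cortex, 0.11 for layer 5 and 6 markers and 0.38 for striatal neuron markers; choroid plexus markers are not drawn.

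Most of the listed markers of striatal projection neurons were higher in HAR123-KO. DESeq2 called 11 of 14 higher and 0 lower, beside 1.04% and 0.754% of all tested genes. The median log2 fold change was 0.38. Among the 11 were Ppp1r1b, Pde10a, Rgs9, Adcy5, Gng7, Rasd2, Drd1, Drd2, Adora2a and Penk, and the values of the 11 ran from 0.29 for Pde10a to 0.80 for Penk, the enkephalin precursor. Gpr6 (0.66) and Tac1 (0.48) passed in edgeR and not in DESeq2, and Pdyn, the dynorphin precursor, was at -0.14 ± 0.15. The summed level of the 14 markers ran from 6943 to 7062 normalized counts in WT and from 9065 to 9131 in HAR123-KO. None of the 14 was at 0 in either genotype.

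Transcription factors of striatal neurons other than the 3 shared genes were also higher in sum, at 802.4 to 858.0 in WT and 968.6 to 1054 in HAR123-KO over 11 genes. Of the 7 that were tested, Meis2 was called higher (log2 fold change 0.28 ± 0.06, SE, DESeq2 adjusted p = 9.59e-05), beside 1.04% of all tested genes. Six3 (0.64 ± 0.27) and Dlx6 (0.48 ± 0.25) had larger values that did not pass, Ebf1 was at -0.11 ± 0.25, and the median was 0.34. Isl1, a factor of direct pathway neurons, was low, with 2 to 15 reads in a library. The part of striatal neurons in the differences of Foxp1, Foxp2 and Bcl11b was not tested. Etv1, which the rule does not place in the shared group, had a log2 fold change of 0.25 and did not pass in DESeq2. Its level in striatum was not measured here.

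**Figure D5:**
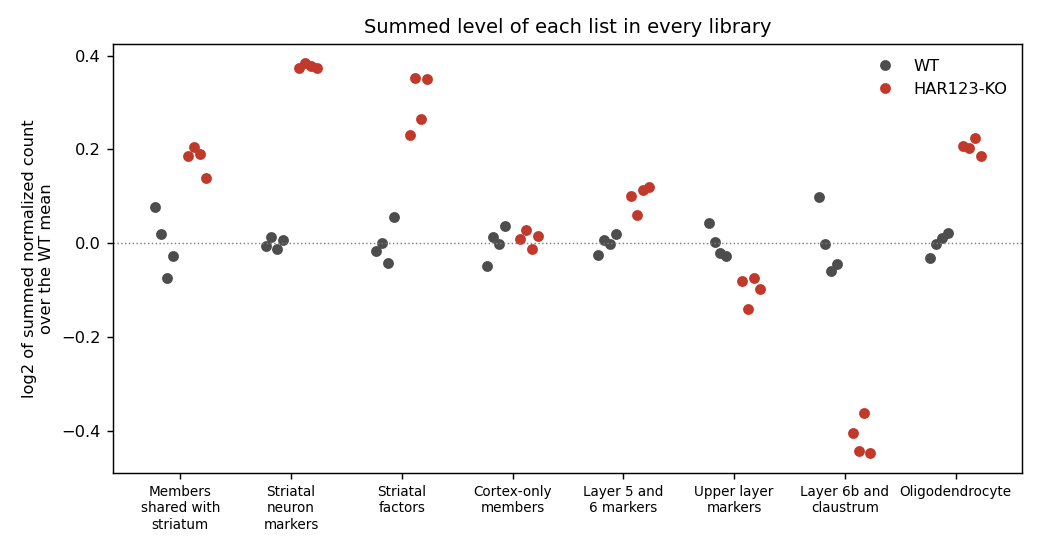
log2 of the summed normalized count of each list over its WT mean (vertical axis) in the 4 WT (grey) and 4 HAR123-KO (red) libraries. Of the 8 lists drawn, the HAR123-KO libraries lie above all WT libraries for the members shared with striatum, the striatal lists, layer 5 and 6 markers and oligodendrocyte markers, below them for upper layer markers (not with library totals as size factors) and layer 6b and claustrum markers, and among them for the members restricted to cortex.

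Some markers of neighbouring layers and of glia passed the test and others did not. Over all tested genes DESeq2 called 1.04% higher and 0.754% lower, the shares beside the counts of this and the next paragraph. Upper layer markers summed to 3601 to 3782 in WT and 3330 to 3483 in HAR123-KO, with 1 of 7 called lower in DESeq2 (Cux2, log2 fold change -0.20 ± 0.05). Rasgrf2 was at -0.15, Lhx2 at -0.04 and Pou3f3 at 0.04. Layer 6b and claustrum markers summed to 792.2 to 883.8 and 605.1 to 641.8, with 2 of 6 tested called lower, Nr4a2 (-0.81 ± 0.11) and Gnb4 (-0.48 ± 0.10), and with Oprk1 at -0.08 and Ccn2 at -0.14. Oligodendrocyte markers summed to 12290 to 12760 and 14290 to 14670, with 3 of 6 called higher, among them Mbp (0.18) and Cnp (0.15), and with Mag at 0.05 and Mog at 0.09. Astrocyte markers summed to 2772 to 2949 and 2502 to 2752, with 2 of 5 called lower, Gja1 (-0.24) and Slc1a3 (-0.18), and with Gfap at 0.16 and Aldh1l1 at -0.02. With library totals as size factors 0 of 7 upper layer and 0 of 5 astrocyte markers were called. The sums of the genotypes then overlapped for upper layer markers (3539 to 3706 in WT and 3388 to 3619 in HAR123-KO) and astrocyte markers (2737 to 3023 and 2475 to 2859). Library totals include Gm42418, which took 56.8% to 58.0% in WT and 55.1% to 57.4% in HAR123-KO. With TMM factors or protein-coding genes for scaling, 1 of 7 upper layer and 2 of 5 astrocyte markers were again called lower.

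Choroid plexus markers summed to 81.06 to 95.21 in WT and 693.8 to 733.1 in HAR123-KO, with Ttr (log2 fold change 3.24 ± 0.10) and Kl (1.99 ± 0.32) called higher in DESeq2. Folr1, Clic6, Kcne2 and Otx2 had means too low for the DESeq2 independent filter and so no adjusted p there. With TMM factors as size factors DESeq2 gave 4 of the 6 an adjusted p and called 3 higher, and edgeR called Clic6 higher (log2 fold change 1.59, adjusted p = 0.000464). The other 3 were near 0, and each was higher in every HAR123-KO library than in any WT library: mean normalized counts were 3.04 in WT and 6.59 in HAR123-KO for Folr1, 0.212 and 2.73 for Kcne2, and 0.212 and 5.001 for Otx2. Markers of GABAergic cells, at 2740 to 2842 in WT and 2873 to 2919 in HAR123-KO, had 0 of 7 called and overlapped between genotypes in sum with library totals as size factors (2664 to 2913 and 2857 to 2995), with log2 fold changes from -0.12 for Pvalb and -0.04 for Vip to 0.12 for Gad2 and 0.15 for Slc32a1. Thalamic markers, at 160.5 to 174.5 and 133.1 to 169.1, had 0 of 4 called. Gbx2 was at 0 in all libraries, and the values ran from -0.46 for Lef1 and -0.20 for Slc17a6 to 0.06 for Prkcd and 0.09 for Tcf7l2. The part of these cell types in the differences of the 10 genes was not tested.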

How the data were processed

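Total RNA of 8 frontal cortex libraries, 4 WT and 4 HAR123-KO, was sequenced, and groups and replicate numbers were taken from the sample titles. The authors aligned reads with STAR 2.5.2b to GRCm38 (Ensembl), counted exons per gene with featureCounts, and deposited raw read counts for 55536 genes. Treatment of strand and of reads with several matches is not given in the sources used here. Symbols and positions came from the GENCODE annotation of GRCm38, in which all 55536 identifiers were found. The deposited gene lengths gave counts per kb.

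Genotypes were compared by the DESeq2 Wald test (version 1.42.0; R 4.3.3). Size factors were median-of-ratios, the model held genotype alone, and p-values were adjusted by Benjamini-Hochberg across 12203 genes that passed the independent filter (a mean of at least 21.2 normalized counts). A gene was called at an adjusted p under 0.05, with no minimum fold. Intervals are 95% Wald intervals. Alternatives were edgeR 4.0.16 (quasi-likelihood), limma-voom (limma 3.58.1), TMM factors, library totals or protein-coding genes for scaling, genes with at least 10 counts in 4 libraries, the independent filter switched off, stricter thresholds, the replicate number as a block, and each library left out. An independent filter tuned to 0.1, edgeR with the block and list sums scaled by library totals were added after seeing the data. The fits were first tested on simulated counts.

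The 10 genes and all lists were chosen with earlier results of these data known. Named were the 10 genes, Smg6 and, of each list, genes called, the 2 highest and 2 lowest of those tested, and genes at or near 0; some items this rule covers are not reported here. No library pair of a genotype agreed within sampling noise (chi-square over its degrees of freedom 1.21 to 1.30 in 12 pairs). PCR copies carried no molecular tags, so a count understates the error of a single library.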

Additional observations from a re-analysis of the deposited data

Results flagged for a closer look

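In Zfpm2, HAR123-KO replicate 1 stood apart from its group, with 93.17 normalized counts beside 105.5 to 106.3 in the other 3 libraries. The gap to the nearest library was 0.939 of the range of the group, above the critical value for 4 samples, which chance passes in about 1 of 20 groups. It was the only such library in 46 groups of 4 tested, where chance gives about 2.3.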

How the results depend on the processing

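The DESeq2 count of 1 member higher became 3 with edgeR, 2 with limma-voom, 3 with library totals as size factors (Foxp1, Foxp2 and Etv1) and 0 at an absolute log2 fold change over 0.5 or at the stricter limits (adjusted p under 0.01, log2 over 1). Leaving out single libraries gave 1 to 2; Etv1 joined without WT replicate 4 and Foxp2 without HAR123-KO replicate 4 (DESeq2). Genes called over the table numbered 219, and 331 with edgeR, 39 with the fold limit and 3 at the stricter limits; with library totals 79.0% of calls were higher, beside 58.0%, and the median of all genes shifted to 0.04. Foxp1 was called in 17 of 18 alternative fits (log2 fold change 0.19 to 0.25, adjusted p 0.000164 to 1.0). Etv1 was called in 5 (adjusted p 0.0156 to 1.0), Foxp2 in 4 (0.0263 to 1.0) and the other 7 in 0. These fits do not include the stricter thresholds, at which no member was called. Deviations of same-numbered libraries had correlations of -0.02 to 0.01, and not every library correlated best with its own number. With 4 libraries a genotype this cannot decide whether the numbers mark pairs, and the labels do not say so. With the replicate block DESeq2 called 22 genes and 0 members higher (Foxp1 0.21), while edgeR with the block called 3 members; the cause was not tested. Leaving out single libraries put Ldb2 between -0.0204 and 0.05033, below 0 without WT replicate 1 (-0.002277), HAR123-KO replicate 1 (-0.0204) or HAR123-KO replicate 2 (-0.002043). No other member turned direction in any alternative. Members lower stayed at 0 in all alternatives. Depth limited the genes with few reads most, with an SE of 0.15 for Fezf2 (66 to 75 reads per library) and of 0.05 for Foxp1 (774 to 1126).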
